A study of Mus musculus with 2 samples.

Results

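The cells described here are 841 mouse leukemic cells, sorted as promyelocytes, from a retinoic acid library. They carried the most RNA of 8 G1/S genes. Membership rested on the summed share of a cell's unique molecular identifiers (UMIs, one per captured RNA molecule) in Mcm5, Mcm6, Ung, Gins2, Hells, Ccne2, Cdc6 and Dscc1. The 20% of cells with the highest share were taken from 4206 retinoic acid cells with at least 5000 UMIs, at least 500 genes, 0.1 to 10% mitochondrial UMIs and a granule share of 0.5% to below 10%. The granule share is the percent of UMIs in the 6 neutrophil granule genes Camp, Ngp, Ltf, Lcn2, S100a8 and S100a9. The other 3365 cells inside those limits are called the remaining cells. Both libraries together held 13202 cell barcodes.

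The study profiled PLZF/RARA transformed progenitors taken from leukemic bone marrow, sorted as late promyelocytes that were Cd45.2+, C-Kit+, Gr1+, Cd34- and FcγR+. The fusion was common to both groups, which were mice given intraperitoneal retinoic acid at 0.8 to 1 mg or the corn oil and DMSO vehicle for 7 days. Each group had 1 droplet 3′ library, and cohorts were of 3 to 5 mice. The number of animals behind each library, their strain and their age are not given in the sources used here.

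With 1 library per group there was no replicate spread and no test was possible. All intervals below are 95% exact intervals for counting error only, and differences between the libraries cannot be told apart from differences between the treatments. Values are in CPM, a gene's share of the summed UMIs of a set of cells on a fixed scale, and a difference is a log2 ratio of 2 such values. The retinoic acid library held 7416 barcodes and 110443779 UMIs, and the vehicle library held 5786 barcodes and 99679545 UMIs. The libraries shared 11 barcodes, of which 4 were among the members.

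A cell licenses its replication origins in G1 by loading the MCM helicase onto DNA through the origin recognition complex, Cdc6 and Cdt1. At the G1/S transition, cyclin E with Cdk2 relieves the retinoblastoma proteins' hold on E2F factors, and E2F target genes for licensing, nucleotide supply and fork proteins are transcribed together. Genes for mitosis are transcribed later under the MuvB, B-Myb and FoxM1 complexes, often through a CHR promoter element, and replication-dependent histone genes are transcribed during DNA synthesis. In the neutrophil lineage promyelocytes still divide, and division ends as cells move on past the myelocyte stage.

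Promoters are shown first, because E2F sites are the classical mark of G1/S genes. Mcm6, Mcm5 and Hells are among the genes that chose the cells. Mcm7, Pole4 and Dtl are from a list of licensing and fork genes that did not choose them. Only genes whose window held the E2F letters are shown, taken by their level in the members. RefSeq windows were read for the 250 bases before each start on GRCm38.p6, and the E2F letters searched were TTTCCCGC and TTTGGCGC on both strands; neither holds the CHR letters given below. Capitals mark the matches, and each sequence runs 5′ to 3′ on the gene's strand. Windows that overlap an exon in GENCODE M21 are limited to at most 30 bases around the match.
Mcm6 (chr1:128359715-128359845, minus strand): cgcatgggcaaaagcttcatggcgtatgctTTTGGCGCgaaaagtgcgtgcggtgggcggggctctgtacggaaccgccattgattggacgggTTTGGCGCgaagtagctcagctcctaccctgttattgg
Mcm5 (chr8:75109298-75109397, plus strand): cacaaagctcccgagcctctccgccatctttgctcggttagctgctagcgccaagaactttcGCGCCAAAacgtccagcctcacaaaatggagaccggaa
Hells (chr19:38930917-38930946, plus strand): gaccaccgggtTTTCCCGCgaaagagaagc
Mcm7 (chr5:138172030-138172059, minus strand): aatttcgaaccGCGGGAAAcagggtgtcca
Pole4 (chr6:82652890-82652919, minus strand): ctctacccggcGCGGGAAAggggccgaaat
Dtl (chr1:191575545-191575563, minus strand): cgtgacgtcagTTTGGCGC

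The E2F letters stood in 4 of the 5 rule genes that had a RefSeq entry, against 407 of 27025 symbols (1.51%) with a promoter in the table. In Mcm6 they occurred at 2 places, starting 110 and 47 bases before the start. Among genes that did not choose the cells, the letters were in 6 of 42 licensing and fork genes (14.3%), 6 of 26 E2F and G1/S control genes (23.1%), 3 of 22 replication stress and repair genes (13.6%), 2 of 18 chromatin assembly genes (11.1%), 0 of 20 nucleotide supply genes, 2 of 11 PRC2 genes (18.2%), 1 of 32 histone genes and 2 of 51 G2/M genes (3.92%). The CHR letters TTTGAA, searched on both strands, were in 0 of the 5 rule genes, 6 of 42 licensing and fork genes (14.3%), 20 of 51 G2/M genes (39.2%), 15 of 32 histone genes (46.9%), 8 of 26 E2F and G1/S control genes (30.8%), 4 of 11 PRC2 genes (36.4%) and 18.3% of all symbols. These are matches of letters, and binding was not measured.

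The lowest member had 0.07962% of its UMIs in the 8 rule genes and the highest remaining cell had 0.07961%. The 10 lowest members lay up to 0.0802%, and the 10 highest remaining cells lay down to 0.0791%. Within 0.01 percentage points of the cutoff lay 209 members and 201 remaining cells, so the members are a range of a continuous score and not a separate cluster. The median share was 0.102% in members and 0.0238% in the remaining cells. A member carried a median of 17 rule-gene UMIs (5 to 47), against 4 in a remaining cell, and the median member had UMIs of 6 of the 8 genes.

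**Figure D1:**
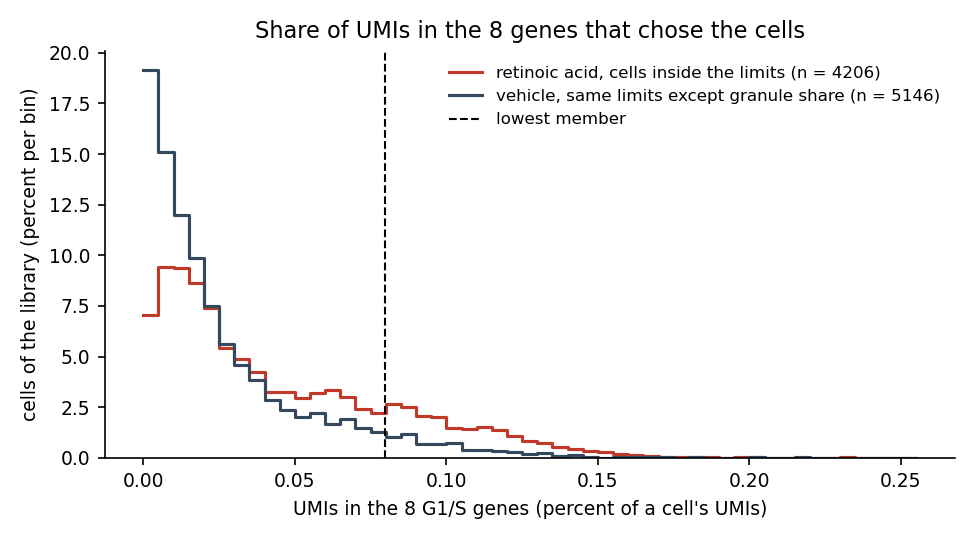
Distribution of the share of UMIs in the 8 G1/S genes (x axis, percent of a cell's UMIs) as percent of cells per bin (y axis), for the 4206 retinoic acid cells inside the limits and the 5146 vehicle cells under the same limits without the granule share. The dashed line marks the lowest member at 0.07962%, and no gap separates the cells on its sides.

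The levels of the 8 rule genes in the members follow from the choice and are given as a description. Ung, the uracil DNA glycosylase of base excision repair, had 69.2 CPM in members and 9.15 CPM in the remaining cells. Cdc6, the loader of the MCM helicase, had 70.7 and 10.6 CPM. Mcm6, a subunit of that helicase, had 381 and 120 CPM. The log2 ratios of the 8 genes ran from 1.54 for Mcm5 to 2.92 for Ung.

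Choosing cells by a score inflates the ratios of the genes in it, so each cell's UMIs were divided at random into 2 parts, with cells chosen on one and levels read in the other. The ratios then were 2.30 for Ung, 2.30 for Cdc6, 1.92 for Ccne2, 1.86 for Dscc1, 1.70 for Hells, 1.33 for Gins2, 1.30 for Mcm6 and 1.22 for Mcm5, each lower than with all UMIs. Of the 841 cells chosen by one set of UMIs, 495 (58.9%) were also chosen by the other, and 667 (79.3%) were members. The part of this change of cells in the lower ratios was not tested.

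Members had a median of 16276 UMIs and 3763 genes, against 17017 UMIs and 3836 genes in the remaining cells. The median mitochondrial share was 1.26% and 1.35%, and the median granule share was 2.58% and 2.43%. The median share in G2/M genes was 0.383% in members and 0.844% in the remaining cells. Only 1 of the 841 members (0.119%) lay among the 20% of cells highest in G2/M genes, against 840 of the 3365 remaining cells (24.96%).

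The sorted identity was checked against promyelocyte markers. Members held the primary granule proteases Elane at 9098 CPM, Ctsg at 6382 CPM and Prtn3 at 3270 CPM, and the transcription factors Gfi1 at 152 CPM and Cebpe at 283 CPM. Kit, the receptor used in the sort, stood at 20.4 CPM. Cd34, against which the cells were sorted, had 0 UMIs in members. Mpo, the myeloperoxidase of primary granules and a defining promyelocyte gene, also had 0 of the members' 14034187 UMIs, which allows up to 0.214 CPM, and stood at 0.02 CPM in the remaining cells, while the vehicle cells at the same G1/S score had 2309 Mpo UMIs (359 CPM). Whether both libraries came from the same mouse line is not stated in the sources used here, and the cause of this difference was not tested. Of the 10 fixed markers, 8 reached 20 CPM in members or remaining cells, and Fcnb, a ficolin of granules, stood at 10.6 CPM in members.

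Markers of other cell types were compared between members and remaining cells as summed levels. The monocyte or macrophage list had 7.98 CPM in members and 9.62 CPM in the remaining cells, with Csf1r, Cx3cr1 and Ms4a6c at 0 in members. The B cell list had 7.41 and 6.13 CPM with Ms4a1 and Ebf1 at 0, and the eosinophil list had 4.92 and 3.91 CPM with Ear1 and Ear2 at 0. The erythroid, megakaryocyte and dendritic lists each lay at or below 1.00 CPM in both sets. The T or NK list had 602 and 599 CPM, of which Nkg7 gave 602 and 599 CPM with Cd3e, Cd3g and Ncr1 at 0 in members. The mast or basophil list was lower in members, 62.6 against 80.7 CPM, of which Mcpt8 gave 60.7 and 77.3 CPM with Prss34 and Fcer1a at 0; its part in the results below was not tested.

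Against the remaining cells, members were higher in replication genes and lower in genes of mitosis. The level floor was 20 CPM in one set or the other. Of the 5382 genes above it, 152 (2.82%) were at least 1.5-fold higher in members and 100 (1.86%) at least 1.5-fold lower, with the rule genes left out. The median log2 ratio over all these genes was -0.02. Of the 152 higher genes, 75 belonged to the 5 gene lists for replication and its control, 0 to the G2/M list, 1 to another list and 76 to none. Of the 100 lower genes, 39 belonged to the G2/M list, 4 to the replication lists, 1 to another list and 56 to none. The members were chosen in this same contrast, so these counts describe the set and support nothing further.

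**Figure D2:**
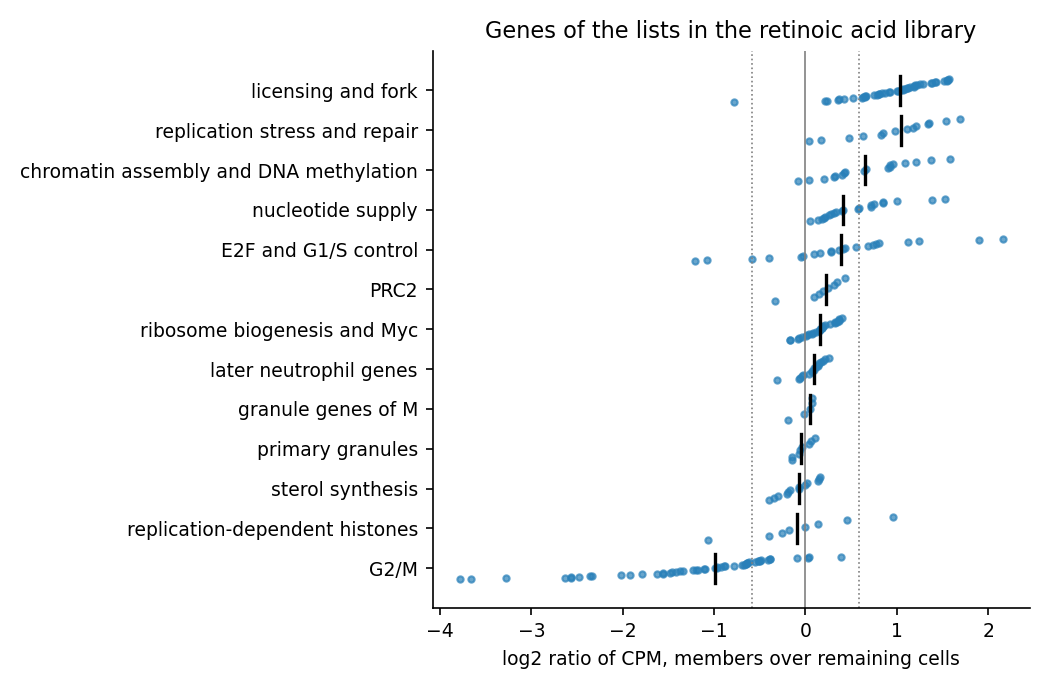
Log2 ratio of CPM, members over remaining cells (x axis), for each gene above the level floor in 13 lists (y axis). Points are genes, black bars are list medians, and dotted lines mark 1.5-fold; the licensing and fork median lies at 1.03 and the G2/M median at -0.99.

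Licensing and fork genes outside the rule were higher as a list. Of 51 genes, 44 reached 20 CPM, of which 37 were at least 1.5-fold higher and 1 lower, with a median log2 ratio of 1.03. Their summed level was 4321 CPM in members and 2265 CPM in the remaining cells. The remaining MCM subunits moved close together. Mcm3 had 217 and 74.3 CPM (log2 1.55, 1.48 to 1.61), Mcm4 had 130 and 43.7 CPM (1.57), Mcm2 had 128 and 48.0 CPM (1.42) and Mcm7 had 228 and 99.2 CPM (1.20). Cdt1, which loads the helicase with Cdc6, had 82.4 and 36.1 CPM, and its inhibitor Gmnn had 226 and 123 CPM.

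At the fork itself, Pcna, the sliding clamp, had 359 CPM in members and 147 CPM in the remaining cells (log2 1.29). Rfc3, part of the clamp loader, differed by 1.56, Prim1, the primase that starts each strand, by 1.38, and Lig1, which joins Okazaki fragments, by 1.39. Clspn, the checkpoint mediator claspin, differed by 1.51. Pole3 and Orc3 differed by only 0.21 and 0.23. Thus the difference was not shared evenly over the list. Dbf4, the activating subunit of the Cdc7 kinase that fires licensed origins, was the exception, with 39.2 CPM in members and 67.3 CPM in the remaining cells (log2 -0.78).

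To set members beside cells in other states, 2 further sets of retinoic acid cells were formed. The G2/M-high set holds the 840 non-members among the 20% of cells with the largest G2/M share. The set low in both holds 639 non-members below the median in the G1/S score and in the G2/M share. The median UMI count was 20765.5 in G2/M-high cells, 16276 in members and 12561 in cells low in both. The part of depth in the CPM ratios against these sets was not tested. After thinning every cell to 5000 UMIs, which left out no cell, the median share in the licensing and fork genes was 0.42% in members, 0.20% in the remaining cells, 0.16% in G2/M-high cells and 0.12% in cells low in both. At that depth 823 members (97.9%) lay above the median remaining cell, and 287 (34.1%) above the remaining cells' 95th percentile.

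Genes that supply nucleotides were higher less evenly. Of 21 genes at the level floor, 9 were at least 1.5-fold higher and 0 lower, with a median log2 ratio of 0.41. Rrm2, the regulated subunit of ribonucleotide reductase, had 283 and 109 CPM (log2 1.38), while its partner Rrm1 had 151 and 100 CPM (0.59). Tk1, the thymidine kinase, differed by 1.00, and Dut, which removes dUTP, had 492 and 274 CPM (0.84). Nme1, a general nucleoside diphosphate kinase, had 578 and 560 CPM (0.05).

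Chromatin assembly genes showed the same direction, with 10 of 18 at least 1.5-fold higher, 0 lower and a median of 0.65. Uhrf1, which brings Dnmt1 to newly replicated DNA, had 117 and 39.2 CPM (log2 1.58), and Dnmt1, the maintenance methyltransferase, had 180 and 115 CPM (0.64). Chaf1b, a subunit of the histone chaperone CAF-1, differed by 1.37. Slbp, which binds the stem-loop of histone mRNAs, had 239 and 126 CPM (0.92). Suv39h1, a histone H3 lysine 9 methyltransferase, had 21.9 and 23.3 CPM.

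Among replication stress and repair genes, 11 of 14 were at least 1.5-fold higher and 0 lower, with a median log2 ratio of 1.04. Chek1, the checkpoint kinase of stalled forks, had 29.0 and 8.99 CPM (log2 1.69). Exo1, an exonuclease of mismatch and break repair, differed by 1.54. Rad17, a checkpoint clamp loader, had 36.4 and 35.5 CPM (0.04).

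Of the E2F and G1/S control genes, 8 of 22 were at least 1.5-fold higher and 3 lower, with a median of 0.39. E2f1 (chr2:154559407-154569892, minus strand, GRCm38) had 61.8 CPM in members and 16.5 CPM in the remaining cells (log2 1.90, 1.77 to 2.03), the largest ratio outside the rule among genes that reached 50 CPM in one of the sets. Ccne1, the partner of the rule gene Ccne2 in the cyclin E pair, had 44.5 and 9.96 CPM (2.16). E2f2 differed by 1.24 and Skp2, which targets p27 for degradation, by 1.12. The cyclin D genes did not share this: Ccnd3 had 189 and 155 CPM (0.28), and Ccnd1 and Ccnd2 lay at or below 5.13 CPM in both sets. The 3 lower genes were Ccna2 (cyclin A2, -1.08), Cks1b (a small Cdk subunit, -0.59) and Cdkn2d (the Cdk4 and Cdk6 inhibitor p19, 12.8 and 29.8 CPM, -1.21).

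The 76 higher genes in none of the lists were led, by ratio, by Tcf19 (32.9 and 8.88 CPM, log2 1.89) and Donson, a factor of replication initiation (21.8 and 6.54 CPM, 1.74). Atad2, a bromodomain ATPase, had 293 and 146 CPM (1.01). Psmc3ip, a gene of homologous repair, was the 1 gene in no list among the 15 largest positive ratios of genes that reached 50 CPM, at 73.4 and 26.9 CPM (1.45). Wdr76, Dck (deoxycytidine kinase) and Cdca7 differed by 1.43, 1.23 and 1.11. Tcf19, Donson, Atad2, Wdr76, Dck and Cdca7 were named after their values were seen.

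Genes of G2 and mitosis were lower in members. Of 51 at the level floor, 39 were at least 1.5-fold lower and 0 higher, with a median log2 ratio of -0.99 and summed levels of 4396 and 8925 CPM. Ube2c, the ubiquitin-conjugating enzyme of the anaphase-promoting complex, had 38.4 CPM in members, 530 CPM in the remaining cells and 1182 CPM in G2/M-high cells (members over remaining -3.78). The centromere genes Cenpa and Cenpf differed from the remaining cells by -3.66 and -3.28, Cdc20, the activator of the same complex, by -2.63, and the mitotic cyclin Ccnb1 by -2.56. Of the 15 largest negative ratios among genes that reached 50 CPM, 12 were in the G2/M list, and one outside it was Cdkn3, a phosphatase acting on cyclin-dependent kinases (14.7 and 72.3 CPM, -2.30). H2afx, a histone variant gene named after its value was seen, had 89.7 and 260 CPM (-1.53).

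Against the G2/M-high cells, 224 of 5568 genes (4.02%) were at least 1.5-fold higher in members and 300 (5.39%) lower, with a median of -0.06. Of 56 G2/M genes 52 were lower there and 0 higher, which the choice of that set fixes, and of 44 licensing and fork genes 38 were higher and 1 lower.

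The G2/M list was not uniformly lower. Mki67, the proliferation antigen, had 132 and 242 CPM (log2 -0.88), Top2a, the topoisomerase that untangles replicated DNA, had 159 and 226 CPM (-0.50), and Cbx5, the heterochromatin protein HP1 alpha, had 112 and 85.9 CPM (0.39). Set beside cells low in both scores, members were higher in most of the list. There, 30 of the 39 that could be compared exceeded 1.5-fold upward and 2 downward, with a median of 1.21, against 10.2% of all 5361 genes higher, 2.07% lower and a median of 0.04. Top2a had 15.9 CPM in cells low in both. The 2 lower genes were Cenpa (17.7 CPM in members, 71.2 in cells low in both, log2 -2.00) and Ccnb2, a mitotic cyclin (24.9 and 93.1 CPM, -1.90). The low in both set was chosen on both scores, so these values are also a description.

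**Figure D3:**
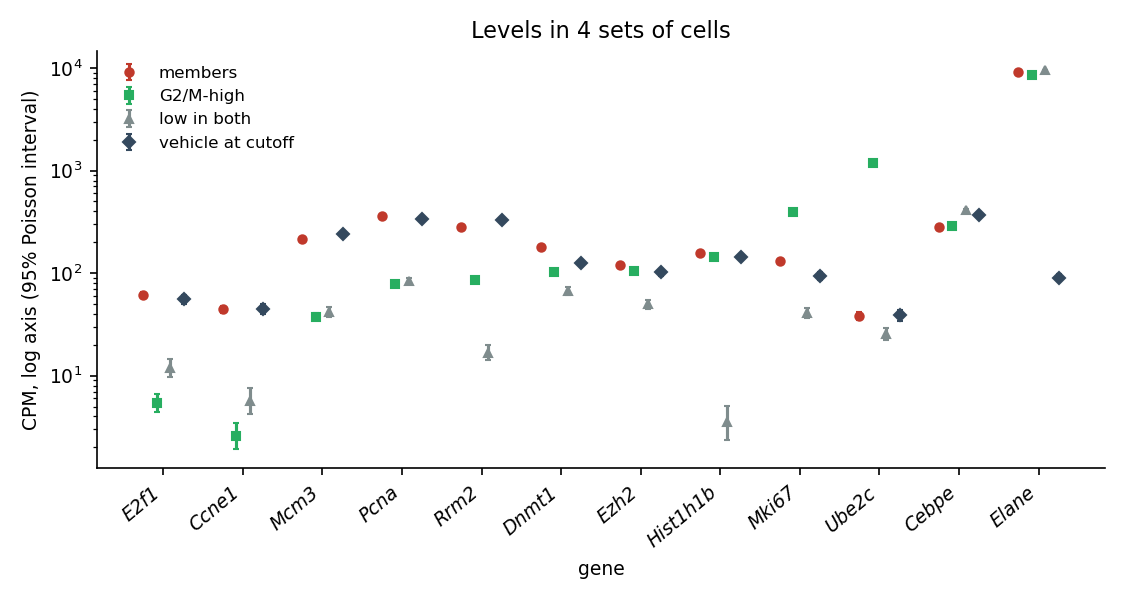
CPM (y axis, log scale) of 12 genes (x axis) in members, G2/M-high cells, cells low in both and vehicle cells at the member cutoff, with 95% Poisson intervals. E2f1 and Ccne1 were higher in members and in vehicle cells at the cutoff than in the other sets. Members and these vehicle cells were both chosen by their rule-gene score. Ube2c was highest in G2/M-high cells at 1182 CPM, and Elane was at 90.6 CPM in the vehicle cells against 9098 CPM in members.

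Replication-dependent histone genes had summed levels of 469 CPM in members and 487 CPM in the remaining cells (log2 -0.05, -0.09 to -0.02). The ratio was -0.15, 0.17, -0.02 and -0.31 in the bins of granule share from 0.5 to 1, 1 to 2, 2 to 5 and 5 to 10%, so its direction differed between bins. Against cells low in both it was 2.18, with 7 of 8 genes at least 1.5-fold higher and 1 lower. Over all 5361 genes in that contrast, 10.2% were higher and 2.07% lower. Replication-dependent histone mRNAs mostly end without a poly(A) tail, which 3′ capture needs, and gene copies are near-identical, so their counts are uncertain. Of 8 genes at the level floor, 1 was at least 1.5-fold higher (Hist1h1a, a linker histone gene, 28.1 and 14.5 CPM) and 1 lower (Hist1h4d, 12.1 and 25.4 CPM). Hist1h1b, also a linker histone gene, had 159 and 145 CPM (log2 0.14, 0.07 to 0.20). When all 4206 cells were ranked by the G1/S score and divided into 5 equal groups, of which the members are the highest, Hist1h1b had 84.6, 124, 159, 214 and 159 CPM in order of the score. Its highest level was thus in the group just below the members.

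Other genes followed the score without a turn. Pcna had 66.1, 86.0, 163, 281 and 359 CPM over the 5 groups, E2f1 had 5.52, 7.06, 16.1, 39.4 and 61.8 CPM, and Ube2c had 829, 727, 431, 104 and 38.4 CPM. Elane stayed between 8658 and 9130 CPM. The groups were made from the score itself, so the order of replication genes over them is a description.

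The members were not alike in histone genes. They were divided by their G2/M share into 3 groups, the lowest of 281 cells and the middle and highest of 280 cells each, so values of G2/M genes over them are set by that division. The rule genes together had 1028, 1102 and 1042 CPM from lowest to highest G2/M share, and the licensing and fork list had 3748, 4532 and 4608 CPM. The histone list had 70.0, 217 and 1054 CPM, with 8 of 8 genes at least 1.5-fold higher in the highest group than in the lowest. The share over all genes is not given for this division. Hist1h1b had 6.55, 51.2 and 393 CPM (highest over lowest log2 5.88), Hist1h2ae had 3.04, 17.1 and 117 CPM (5.21), and Hist1h1e had 16.6, 28.2 and 121 CPM (2.85). Cells with a similar G1/S score thus spanned a wide range of histone RNA.

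Ung was lower in the highest group only, with 85.9, 86.3 and 38.4 CPM (highest over lowest log2 -1.16, -1.42 to -0.91), although the summed score was similar. Ung, Mcm6 and Cdc6 are rule genes, so their levels in members depend in part on the choice. Mcm6 had 393, 370 and 381 CPM and Cdc6 had 66.2, 80.9 and 64.7 CPM, with no order. Of 21 nucleotide supply genes, 6 stood at least 1.5-fold higher in the group of highest than of lowest G2/M share and 1 lower, with a median of 0.23. Of 44 licensing and fork genes 6 were higher and 0 lower, and of 27 ribosome biogenesis genes 0 passed 1.5-fold. The share over all genes is not given for these groups, so these counts do not set the lists apart from other genes. Rrm2 had 140, 307 and 384 CPM (1.46), Tk1 had 61.1, 107 and 168 CPM (1.46) and Tyms, the thymidylate synthase, had 98.3, 156 and 228 CPM (1.21). Fbxo5, also known as Emi1, an inhibitor of the anaphase-promoting complex that is not in the G2/M list, had 24.8, 78.4 and 129 CPM (2.37). Ccne1 had 33.5, 41.8 and 56.5 CPM (0.75). Cebpe, a factor of granulocyte maturation, had 330, 285 and 239 CPM (-0.47). The median UMI count was 14898 in the lowest group, 16953 in the middle and 17594 in the highest, and the median granule share was 2.89%, 2.45% and 2.35%; the part of depth in these values was not tested.

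**Figure D4:**
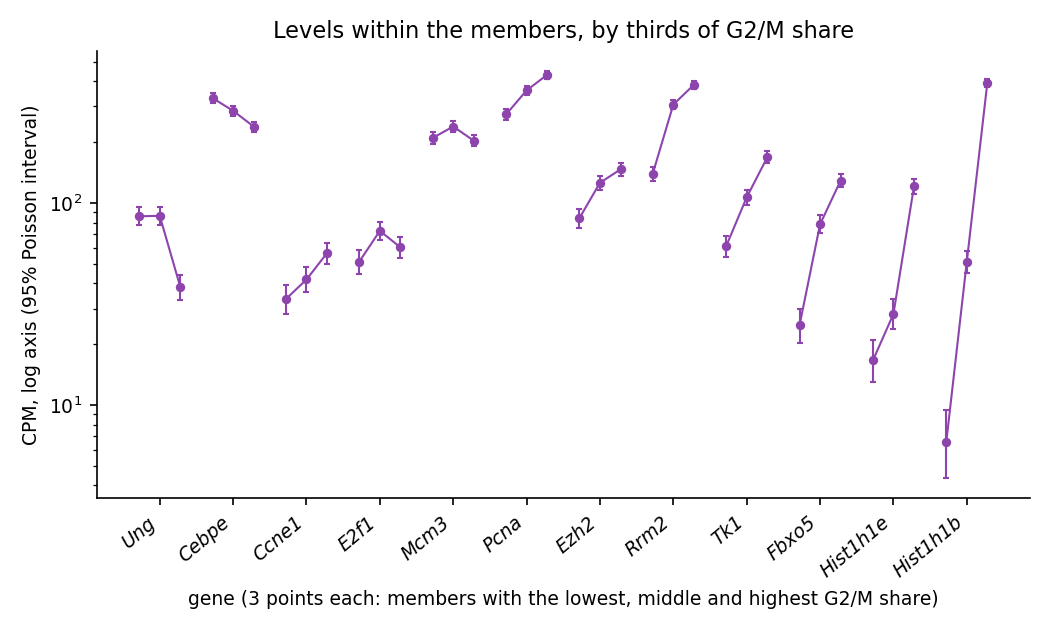
CPM (y axis, log scale) of 12 genes in the members divided into 3 groups by G2/M share, lowest to highest from left to right within each gene, with 95% Poisson intervals. Ung and Cebpe were lowest in the highest group, at 38.4 and 239 CPM, and Hist1h1b was highest there at 393 CPM against 6.55 CPM in the lowest group.

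Ezh2 (chr6:47530139-47595341, minus strand, GRCm38) encodes the catalytic subunit of Polycomb repressive complex PRC2, which methylates histone H3 at lysine 27. Its level was 120 CPM in members and 94.9 CPM in the remaining cells (log2 0.34, 0.27 to 0.42), which is below 1.5-fold. It was 104 CPM in G2/M-high cells (members over G2/M-high 0.21) and 49.9 CPM in cells low in both (1.27, 1.12 to 1.43). Over the 5 groups by G1/S score Ezh2 had 81.1, 91.2, 95.4, 113 and 120 CPM, and over the 3 groups of members by G2/M share it had 84.0, 126 and 147 CPM. Members and G2/M-high cells were thus closer to each other in Ezh2 than either was to cells low in both.

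The PRC2 list, which holds Ezh2, had 0 of 8 genes past 1.5-fold against the remaining cells and a median of 0.22. Over all 5382 genes in this contrast, only 2.82% were higher and 1.86% lower, so this count does not set the list apart. The core subunits Suz12 and Eed had 121 and 105 CPM (0.19) and 33.7 and 28.4 CPM (0.25). The histone-binding subunits Rbbp4 and Rbbp7, shared with other complexes, differed by 0.31 and 0.44. Jarid2, an accessory subunit, was in the other direction, with 58.9 and 74.2 CPM (-0.33). Against cells low in both, 5 of 8 were at least 1.5-fold higher, with a median of 0.68. Over all 5361 genes in that contrast, 10.2% were higher and the median was 0.04. Within bins of the granule share from 0.5 to 1, 1 to 2, 2 to 5 and 5 to 10%, the Ezh2 ratio of members over remaining cells was 0.43, 0.42, 0.33 and 0.22, and the intervals of these bins overlapped.

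Most granule and maturation genes that could be compared differed by less than 1.5-fold between members and remaining cells. None of 8 primary granule genes, 5 granule share genes and 18 later neutrophil genes passed 1.5-fold, with medians of -0.05, 0.05 and 0.09. Over all 5382 genes in this contrast, only 2.82% were higher and 1.86% lower, so these counts do not set the lists apart. Elane, the neutrophil elastase, had 9098 and 8857 CPM (log2 0.04), Camp, the cathelicidin of secondary granules, had 10196 and 9690 CPM (0.07), and Cebpe had 283 and 290 CPM (-0.04). Ly6g, the antigen of maturing neutrophils, had 47.3 and 58.9 CPM (-0.31). Ltf, the lactoferrin of secondary granules, lay below the level floor, with 18 UMIs (1.28 CPM) in members and 370 UMIs (6.004 CPM) in the remaining cells (log2 -2.19, -3.00 to -1.55). At a granule share of 5 to 10% it had 3.44 and 26.6 CPM (-2.89, -4.03 to -2.06), while in the other bins it lay at or below 1.28 CPM in both sets. The granule share genes were limited by the rule, but the primary granule and later neutrophil lists were not.

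Progenitor, ribosome biogenesis, sterol, interferon and immediate early genes had 0 of 4, 27, 13, 3 and 6 genes past 1.5-fold, with medians of 0.24, 0.16, -0.07, 0.07 and -0.03. With 2.82% and 1.86% of all genes past it, such counts do not set these lists apart. Against cells low in both, 10 of 27 ribosome biogenesis genes stood at least 1.5-fold higher and 0 lower, and 6 of 7 immediate early genes were lower and 0 higher (sums 0.37 and -0.56). Over all 5361 genes in that contrast, 10.2% were higher and 2.07% lower. Kit had 20.4 and 15.6 CPM (log2 0.39) and Myb, a progenitor transcription factor, had 183 and 162 CPM (0.18). Ncl, the nucleolar protein nucleolin, had 1165 and 1028 CPM (0.18), and Nop56, a ribosomal RNA processing factor, had 154 and 123 CPM (0.33). No gene of the retinoic acid response list reached 20 CPM in either set.

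Cells above the member cutoff were found at every granule share in the retinoic acid library. The percent of cells at or above it was 15.1% (12.05 to 18.6) below a granule share of 0.5%, 19.1% at 0.5 to 1%, 18.6% at 1 to 2%, 20.8% at 2 to 5%, 21.04% at 5 to 10% and 16.6% (14.7 to 18.5) at 10% and above. The numbers of cells were 490, 697, 1051, 1536, 922 and 1552. Cells at 10% and above had a median of 10880.5 UMIs, fewer than the other bins, and granule RNA itself takes a part of their total. With the granule genes left out of the total, that bin had 20.8%. The licensing and fork ratio of members over remaining cells was 0.90, 0.96, 0.94 and 0.91 in the 4 bins from 0.5 to 10%.

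**Figure D5:**
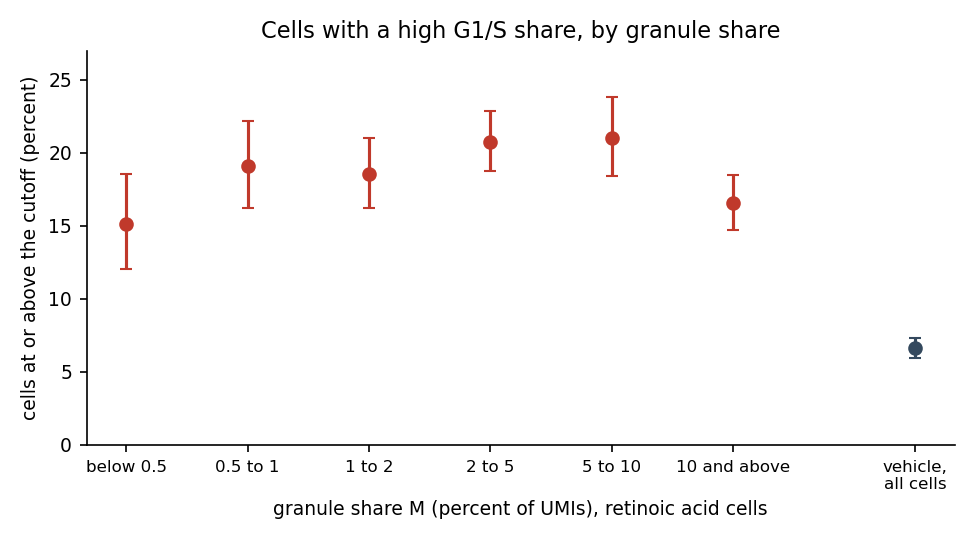
Percent of retinoic acid cells at or above the member cutoff (y axis) by granule share (x axis, percent of UMIs), and of all vehicle cells, with 95% Clopper-Pearson intervals. The retinoic acid bins lie between 15.1 and 21.04%, and the vehicle library lies at 6.63%.

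In the vehicle library 341 of 5146 cells (6.63%, 5.96 to 7.34) reached the same cutoff, against 1172 of 6248 retinoic acid cells at any granule share (18.8%, 17.8 to 19.7). With every cell thinned to 5000 UMIs it was 10.999% of vehicle cells, against 25.1% of the 4206 retinoic acid cells, since tied scores put more than 20% of them at the cutoff. The median UMI count was 17171.5 in all vehicle cells and 16864.5 in the 4206 retinoic acid cells. Only 185 vehicle cells had a granule share of 0.5% to below 10%, so the vehicle cells were taken without that limit. The 341 cells had a median of 18716 UMIs and a median granule share of 0.0378%. Their G2/M share was 0.366% at the median, near the 0.383% of members.

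The vehicle cells at the cutoff differed from the other vehicle cells in the same lists. The cells at the cutoff were chosen by their rule-gene score in this same contrast. Their values in replication and G2/M genes thus describe that choice and are no separate support for the pattern in members. Past 1.5-fold, 272 of 5472 genes (4.97%) stood higher in them and 119 (2.17%) lower, with a median log2 ratio of 0.05. Licensing and fork genes had a median of 1.31 with 40 of 45 at least 1.5-fold higher, and G2/M genes a median of -0.53 with 18 of 43 lower. Some marker lists of other cell types were lower in them. The mast or basophil list had 336 and 764 CPM (-1.18) and the eosinophil list 29.3 and 90.5 CPM (-1.63). The megakaryocyte list had 16.2 and 29.5 CPM (-0.86), the monocyte or macrophage list 63.8 and 81.9 CPM and the erythroid list 2.33 and 4.31 CPM. The T or NK list had 1287 and 1284 CPM, and the intervals of the B cell (-0.12) and dendritic (0.19) lists included 0. The part of such other cells in these values was not tested. E2f1 differed by 2.01, Ccne1 by 2.42 and Ezh2 by 0.91 (101.5 and 54.0 CPM). The Ezh2 ratio was 0.34 in the retinoic acid library, where the comparison cells had a median G2/M share of 0.844% against 0.189% in the vehicle cells below the cutoff; the difference between the libraries was not tested.

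Members and vehicle cells at the same score were close in the sum of licensing and fork genes, at 4321 and 4330 CPM (log2 -0.00, -0.02 to 0.02). With the 20% highest vehicle cells in place of those at the cutoff it was 0.23, and with TMM scaling 0.085. Both sets were cut at the same score, with rule-gene sums of 1058 and 1011 CPM. Closeness in related genes is thus a description of that choice. Of 5562 genes, 353 (6.35%) were at least 1.5-fold higher in members and 521 (9.37%) lower, with a median of -0.04. Of 45 licensing and fork genes 0 were higher and 2 lower: Dna2, a nuclease and helicase (26.2 and 47.8 CPM, -0.87), and Pold2, a subunit of DNA polymerase delta (61.3 and 95.1 CPM, -0.63). Ezh2 had 120 and 101.5 CPM (0.25, 0.12 to 0.38) and Dnmt1 had 180 and 126 CPM (0.51).

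Among E2F and G1/S control genes, 2 of 22 were at least 1.5-fold higher in members than in the vehicle cells and 4 lower. Over all 5562 genes in that contrast, 6.35% were higher and 9.37% lower. The lists in this paragraph hold few genes, so their counts do not set them apart. Cdc25a, the phosphatase that activates Cdk2, had 66.4 and 39.2 CPM (log2 0.76), and Rbl1, which encodes p107, had 34.1 and 22.1 CPM (0.62). The lower genes were Ccnd2 (cyclin D2, 5.13 and 41.4 CPM, -3.01), Cdkn2a (the Ink4a and Arf locus, 11.6 and 58.7 CPM, -2.33), E2f4 (-0.73) and Cdk4 (-0.61). In the replication stress and repair list 2 of 14 were higher, Chek1 and Brip1, each by 0.61. Ribosome biogenesis genes had a median of -0.30 with 5 of 28 lower and 0 higher.

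Granule genes differed widely between members and the vehicle cells at the cutoff. The 5 genes of the granule share at the level floor were all at least 1.5-fold higher, 31781 against 1121 CPM in sum, but the rule demanded a granule share of at least 0.5% from members only. Elane had 9098 and 90.6 CPM (log2 6.65), and Ctsg had 6382 and 6999 CPM (-0.13). Of 19 later neutrophil genes, 14 were higher and 1 lower, against 6.35% and 9.37% of all 5562 genes. Most marker lists of other cell types were lower in members. The monocyte or macrophage list had 7.98 and 63.8 CPM, the mast or basophil list 62.6 and 336 CPM and the eosinophil list 4.92 and 29.3 CPM. The megakaryocyte list had 0.86 and 16.2 CPM and the T or NK list 602 and 1287 CPM. The B cell list had 7.41 and 8.09 CPM, with an interval that included 0 (log2 -0.13, -0.62 to 0.38). Cpa3, a mast cell protease, had 1 UMI in members and 235 CPM in the vehicle cells, and Gata2, a factor of stem and mast cells, had 0.36 and 22.3 CPM. The part of such other cells and of the library in these differences cannot be told apart from the treatment.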

How the data were processed

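Single-cell RNA-seq counts were analysed as deposited by the authors: UMI counts per gene and barcode from Cell Ranger 4.0.0, per the file headers and the submitters' processing notes, which name mm10 and GRCm38.p4. The gene annotation and the rule for calling cells are not given in the sources used here. Of 32285 gene identifiers, 32158 were in GENCODE M21, from which gene positions were taken; promoter sequences came from RefSeq.

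UMIs were summed over the cells of each set with Python 3.11.15, numpy 2.4.6 and scipy 1.17.1, scaled to CPM, and compared as log2 ratios with 0.5 added to each sum. Intervals were exact at 95% (conditional binomial for ratios, Poisson for CPM, Clopper-Pearson for shares). Counts covered genes of at least 20 CPM in either set. No test was run because each group had 1 library. No doublet caller was run, and leaving out the 5% of cells with most UMIs was an alternative. The calculation was tested on simulated data. TMM factors came from edgeR 4.0.16 in R 4.3.3.

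The members and the gene lists were chosen with earlier results of these data known, and the G2/M-high set, the set low in both and the groups by score or G2/M share were formed likewise. Named genes were the rule genes, PRC2, list genes of at least 20 CPM in either set, and the 15 largest ratios in each direction among genes of at least 50 CPM; other genes are marked in the text as named after their values were seen. Alternatives changed the level floor, the scaling, the size and scoring of the member set, the depth and the granule limits. Some genes of the lists are not reported here by name.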

Additional observations from a re-analysis of the deposited data

Results flagged for a closer look

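In 5 lists with at least 1000 UMIs in each library's comparison, the summed ratio lay on opposite sides of 0 in the 2 libraries with intervals that left out 0 in both. In the retinoic acid library the log2 ratio is members over remaining cells, and in the vehicle library it is cells at the member cutoff over cells below it; the difference between the libraries was not tested. Replication-dependent histone genes had -0.05 with retinoic acid and 0.06 with vehicle. The direction of the retinoic acid ratio differed between bins of granule share, as given above. Primary granule genes had -0.03 and 0.08, and the promyelocyte markers had -0.04 and 0.13. Both of these lists hold Elane, so they are not separate observations. Later neutrophil genes had 0.09 and -0.07. The granule share genes had 0.04 and -0.45, and the retinoic acid cells had been limited in that share by the rule while the vehicle cells had not.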

How the results depend on the processing

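Each group held 1 library, so no value has a check across animals or libraries. No paired analysis was possible because the treatments had 1 library apiece. Genes higher and lower in members numbered 294 and 203 with a floor of 5 CPM, 31 and 28 with 100 CPM and 2221 and 1442 with none; the floor changes how many genes are compared. The licensing and fork ratio of members over remaining cells stayed positive in every alternative: 0.87 with the top 10% as members, 0.99 with the top 30%, 0.80 with a score from thinned cells, 0.89 with separate parts of the UMIs, 0.90 without Mcm5 and Mcm6 in the score, 0.90 with the remaining cells weighted to the members' depth and 0.98 with no granule limit. The G2/M ratio stayed negative: -0.91 with equal weight per cell, -0.98 with the top 10%, -0.86 with thinned scores, -0.96 with separate parts, -1.07 without Mcm5 and Mcm6, -1.0004 by mean rank, -0.93 weighted to depth, -0.99 without the 5% of cells with most UMIs and -0.95 with no granule limit. Ezh2 stayed within its interval against the remaining cells. Thinned to 5000 UMIs, the percent of cells at the cutoff was 21.4, 26.1, 22.6, 26.2, 25.5 and 20.1% from the lowest to the highest granule share and 10.999% in vehicle cells, where tied scores put 25.1% of the 4206 cells at the cutoff; without granule genes in the total, cells of 10% and above had 20.8%. Against vehicle, Ezh2 was 0.40 with the top 20% of vehicle cells, and the licensing and fork ratio, -0.00 at the cutoff, changed sign to 0.23 with the top 20% of vehicle cells and 0.085 with TMM; the cause was not tested. Alternative scores shared 593 (70.5%, thinned), 649 (77.2%, without Mcm5 and Mcm6) and 702 (83.5%, mean rank) of the 841 members. Depth limits single cells: a median member held 17 rule-gene UMIs.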
